A study of Mus musculus with 6 samples.

Results

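The intestinal stem cells sorted on the third of 3 days made up 2 of the 6 bulk RNA libraries of this experiment, 1 from cells given DMSO and 1 from cells given INT-777. They were picked by the replicate number in the sample titles, which the sample descriptions tie to the sorting day, and were compared across all genes with the 4 libraries of days 1 and 2. All cells came from mice carrying Lgr5-eGFP-IRES-CreERT2 (strain label B6.129P2-Lgr5tm1(cre/ERT2)Cle/J), an allele in which the Lgr5 locus drives green fluorescent protein and an inducible Cre, and the brightest cells were sorted, each day from 1 pool of 4 mice. About 200000 sorted cells went into Matrigel at 20000 per 10 µL drop, in a medium with the Notch ligand peptide JAG-1 (1 µM) and the GSK3 inhibitor CHIR99021 (3 µM). After 4 h they received 30 µM INT-777, a synthetic agonist of the bile acid receptor TGR5, or its solvent DMSO. The sources differ on how long the treatment lasted before RNA was taken, with 12 h in the labels of all 6 samples and 16 h in the series' design, and neither the sex nor the age of the mice is among the labels used here. Because both libraries of a day share 1 pool of mice, day 3 against days 1 and 2 compares 1 pool with 2, and each p-value below measures the spread between these 6 libraries.

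Intestinal crypts are renewed by stem cells at their base that express Lgr5, a receptor for R-spondins that strengthens Wnt signalling. Their daughters choose a fate through Notch: a cell that keeps Notch active represses the transcription factor Atoh1 and becomes absorptive, whereas a cell that escapes Notch expresses Atoh1 together with the Notch ligands Dll1 and Dll4 and enters the secretory lineage. Secretory cells then become mucus-making goblet cells under Spdef, hormone-making enteroendocrine cells under Neurog3, or Paneth cells, which sit between the stem cells and release lysozyme and α-defensins.

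The 6 libraries were alike in depth, with 45682340 to 47905087 read pairs assigned to genes. RNA integrity numbers were 8.7 (DMSO) and 9 (INT-777) on day 3 against 9.2 to 9.6 on the other days, and the ratio of 28S to 18S RNA was 1.2 and 1.3 against 1.6 to 1.8. This lower RNA quality moved with day 3 and cannot be told apart from the pool. Of the genes that define the sorted cell type, Lgr5, Olfm4 and Ascl2 were present in all 6 libraries. Y-linked Ddx3y lay between 47.0 and 51.5 CPM (counts scaled to a common library size with TMM, not comparable between genes of different length) and Xist at 0.584 CPM or less in every library.

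Days 1 and 2 were close to identical, and day 3 stood apart from both. The biological coefficient of variation, the spread between libraries beyond counting error, was 1.99% between the DMSO libraries of days 1 and 2 and 2.72% between the INT-777 libraries. Between day 3 and either of them it was 19.9% with DMSO and 16.5 to 17.2% with INT-777. No gene differed between days 1 and 2 in edgeR's quasi-likelihood test, nor in DESeq2 or limma-voom, and 166 of 16570 had an unadjusted p under 0.05. All these tests fitted treatment and the day as 3 levels. The common value in that edgeR model was 4.8%, above the spread between days 1 and 2 alone. The test was thus conservative, and its lack of calls is weak evidence. In the model of day 3 with treatment the common value was 4%, since it also holds the difference between the day 3 changes of the treatments.

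Of 16570 genes tested with treatment in the model, 2832 were higher on day 3 (17.1%) and 2666 lower (16.1%) at an adjusted p under 0.05, together 33.2%. The 2 directions differed in size: 732 genes were at least 2-fold higher (4.42%) and 85 at least 2-fold lower (0.513%). Among the genes called lower, 1766 changed by less than 0.25 on the log2 scale. The median over all genes tested was 0.00 on that scale. With the RNA integrity number as a covariate 1354 genes were higher and 1043 lower, and without the libraries of day 2 the counts were 1852 and 1225. In each result below the value after a log2 change is its standard error, and n is 2 libraries against 4. Adjusted p-values come from edgeR with Benjamini-Hochberg adjustment over all genes tested. Each count of list members called higher or lower on day 3 in this main fit stands against the 17.1% and 16.1% of all genes. Counts with the RNA integrity number as a covariate stand against the 1354 and 1043 of 16570 genes called in that fit. Fewer members called there thus go with fewer calls over all genes. List counts from the other alternatives have backgrounds of their own, which are not repeated beside them.

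The 12 largest rises named here come from genes whose mean log2 CPM was not under 1 and that carry an official symbol. Fabp6, which encodes the bile acid binding protein of ileal enterocytes and lies at chr11:43596049-43601540 (GRCm38), was at 0.131 CPM on day 1, 0 on day 2 and 7.85 on day 3 with DMSO and at 0, 0.0839 and 6.96 CPM with INT-777. It was nearly absent on days 1 and 2, with 6 and 0 counts with DMSO and 0 and 4 with INT-777, and had 363 and 328 counts on day 3. Its fitted log2 change of 7.04 rests on that near-zero base, and the gene passed the filter on low counts only through day 3, so its call is given no weight. Next came Mtnr1a, a melatonin receptor (2.79 ± 0.17, adjusted p = 3.46e-09), and Capn9, a calpain protease of mucus-making cells (2.66 ± 0.16, adjusted p = 2.69e-09). Ccl9, a chemokine, and Zg16, a lectin of goblet cell granules, each rose by 2.63, and Afp, which encodes α-fetoprotein, by 2.61. The others of the 12 largest were Rep15 (2.54), the pentraxin Mptx1 (2.45), the potassium channel gene Kcnb2 (2.40), the mucus protein gene Fcgbp (2.36), Runx1t1 (2.31) and Cdk5r2, an activator of Cdk5 (2.28).

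The largest falls were in α-defensins and Hox genes. Among the 12 named by the same rule were 7 α-defensins, led by Defa21 at -3.01 ± 0.09 (adjusted p = 1.73e-11), and 3 Hox genes of the B cluster, which pattern the body axis: Hoxb9 (-2.17 ± 0.12, adjusted p = 1.07e-09), Hoxb6 (-1.72) and Hoxb8 (-1.68). Hoxb9 was at 8.62 CPM on day 1, 9.35 on day 2 and 2.21 on day 3 with DMSO and at 6.94, 7.49 and 1.4 CPM with INT-777. The remaining 2 were Cd74, the invariant chain of MHC class II, at -1.78 ± 0.09 (adjusted p = 2.08e-10), and the Paneth cell pentraxin Mptx2 at -1.69 ± 0.15 (adjusted p = 1.31e-05). Both day 3 libraries lay beyond both other libraries of their treatment for each of these 24 genes, which the rule that chose them required.

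**Figure D1:**
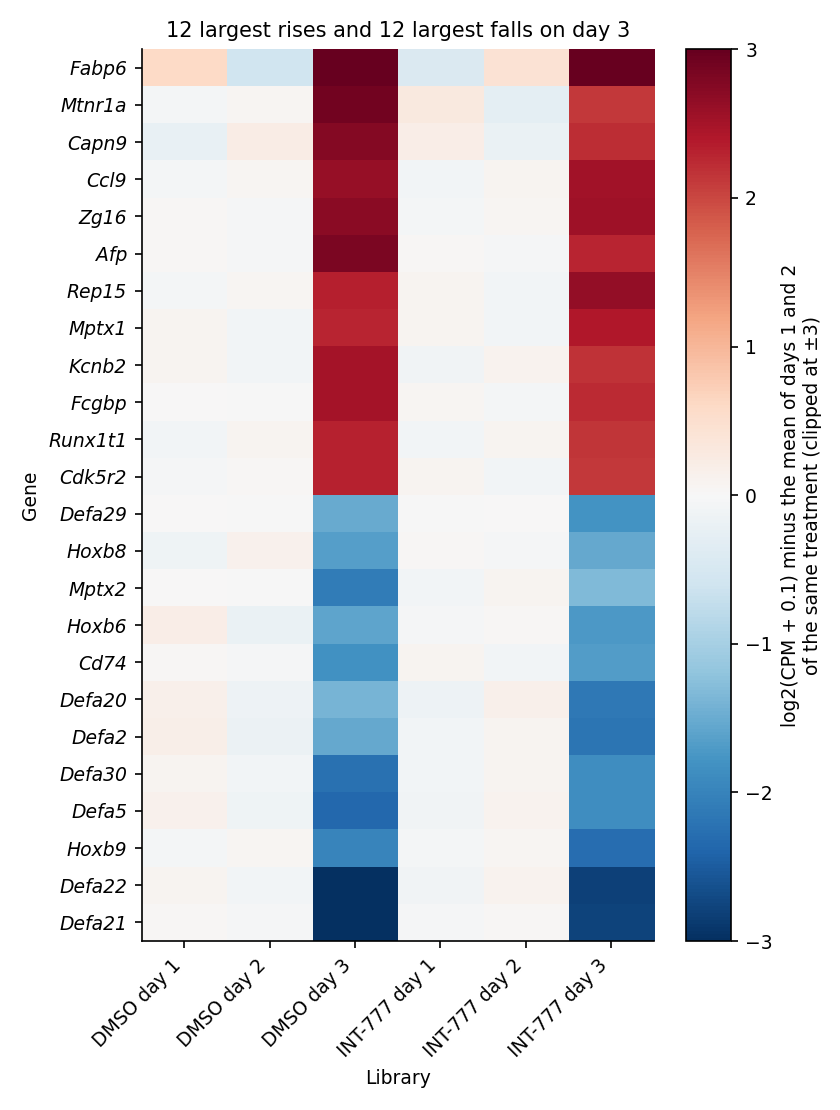
The 12 largest rises and 12 largest falls on day 3 by library, as log2(CPM + 0.1) minus the mean of days 1 and 2 of the same treatment, clipped at 3. Both day 3 columns are red for the 12 genes at the top and blue for the 12 below, and the columns of days 1 and 2 stay near 0, apart from Fabp6, whose level there was close to 0.

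Every regulator of the secretory lineage in the list was higher on day 3. All 15 of 15 were called, against 17.1% of all genes, 9 of them at least 2-fold, with a median log2 change of 1.57. Atoh1 was at 29.5 CPM on day 1, 31.5 on day 2 and 104 on day 3 with DMSO and at 18.9, 20.4 and 71.6 CPM with INT-777. Both day 3 values lay more than 2-fold above the highest of the others (log2 change 1.81 ± 0.05, adjusted p = 7.6e-14). The Notch ligand genes that mark cells leaving the stem cell state rose with it, Dll1 by 1.57 ± 0.05 (adjusted p = 2.21e-13) and Dll4 by 2.01 ± 0.06 (adjusted p = 3.08e-13).

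Downstream factors of each secretory branch moved in the same direction. Spdef, the goblet factor, was at 34.4 CPM on day 1, 36 on day 2 and 136 on day 3 with DMSO and at 15.9, 14.5 and 71.8 CPM with INT-777, a log2 change of 2.09 ± 0.06 (adjusted p = 2.08e-13). Neurog3, the enteroendocrine factor, was at 18 CPM on day 1, 16.4 on day 2 and 73.4 on day 3 with DMSO and at 13.9, 15.1 and 51.7 CPM with INT-777, a change of 1.97 ± 0.06 (adjusted p = 5.57e-13). Gfi1, which holds secretory cells away from the enteroendocrine fate, rose by 2.15 ± 0.07 (adjusted p = 9.54e-13). Smaller rises were called for Sox4 (0.58), Foxa2 (0.56), Xbp1 (0.38) and Foxa1 (0.30), factors that are also active outside the secretory lineage. The 15 were called higher under every alternative run.

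Atoh1 binds E-boxes, and the start sites of Atoh1, of its target Spdef and of the main mucin gene Muc2 are shown because these members rose together. Each window runs from 250 bases before to 50 after the start in RefSeq (GRCm38.p6). Muc2 lies at chr7:141690090-141690389 on the plus strand, Atoh1 at chr6:64728875-64729174 on the plus strand and Spdef at chr17:27728902-27729201 on the minus strand. The E-box CAGCTG, the same on both strands, is in capitals.
Muc2: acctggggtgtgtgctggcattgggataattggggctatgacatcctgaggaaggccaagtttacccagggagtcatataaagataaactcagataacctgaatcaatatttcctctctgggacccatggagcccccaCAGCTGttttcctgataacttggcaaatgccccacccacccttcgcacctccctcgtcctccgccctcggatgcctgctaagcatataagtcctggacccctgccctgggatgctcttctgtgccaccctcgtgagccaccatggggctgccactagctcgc
Atoh1: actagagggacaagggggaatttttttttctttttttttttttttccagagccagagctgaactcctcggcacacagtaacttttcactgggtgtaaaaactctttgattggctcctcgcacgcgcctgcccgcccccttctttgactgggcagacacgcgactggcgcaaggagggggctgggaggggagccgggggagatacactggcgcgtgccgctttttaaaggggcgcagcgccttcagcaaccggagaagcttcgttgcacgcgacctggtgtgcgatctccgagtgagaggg
Spdef: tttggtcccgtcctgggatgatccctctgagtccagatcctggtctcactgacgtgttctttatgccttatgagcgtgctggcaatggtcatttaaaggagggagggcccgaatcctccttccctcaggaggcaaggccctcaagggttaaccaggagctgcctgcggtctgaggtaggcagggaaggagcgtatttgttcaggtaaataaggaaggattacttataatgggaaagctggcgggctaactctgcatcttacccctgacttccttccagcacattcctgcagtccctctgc
The motif occurs once in the Muc2 window, at base 139, and not in the other two, whereas 16.3% of 32851 RefSeq promoter windows hold it. A match is a description of the letters and not evidence of binding.

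Goblet genes rose together. Of 27 genes in the list 26 could be tested and all 26 were higher, 24 of them at least 2-fold, with a median log2 change of 1.81, while St6galnac1 had no count in any library. Their summed level was at 6204 CPM on day 1, 6124 on day 2 and 29960 on day 3 with DMSO and at 3366, 3261 and 13310 CPM with INT-777. The day 3 sums were 4.86 times the mean of days 1 and 2 with DMSO and 4.02 times with INT-777. In these bulk libraries more cells of a type and more RNA per cell cannot be told apart.

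Fcgbp, which encodes a protein that cross-links mucus, made up the largest share of that sum and was at 3416 CPM on day 1, 3345 on day 2 and 19040 on day 3 with DMSO and at 1726, 1596 and 7795 CPM with INT-777. Zg16 was at 231 CPM on day 1, 222 on day 2 and 1483 on day 3 with DMSO and at 146, 158 and 886 CPM with INT-777, a log2 change of 2.63 ± 0.04 (adjusted p = 3.81e-16). Both genes showed no overlap between day 3 and the other libraries. Spink4 (2.00), the chloride channel regulator Clca1 (1.85), the trefoil factor Tff3 (2.07) and Agr2, a disulphide isomerase needed for mucin folding (2.01), rose by close to 4-fold each.

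Muc2, the gel-forming mucin of the gut, was less uniform. It was at 736 CPM on day 1, 759 on day 2 and 2483 on day 3 with DMSO and at 317, 303 and 551 CPM with INT-777. With INT-777 the day 3 value stayed below both DMSO values of days 1 and 2, so the groups overlapped (log2 change 1.31 ± 0.25, adjusted p = 0.0345). Its rise was called under 9 of 17 alternatives and not under the other 8, where the adjusted p reached 0.399 and the change ranged from 0.77 to 1.73. Within the treatments it was 1.73 with DMSO and 0.83 with INT-777.

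**Figure D2:**
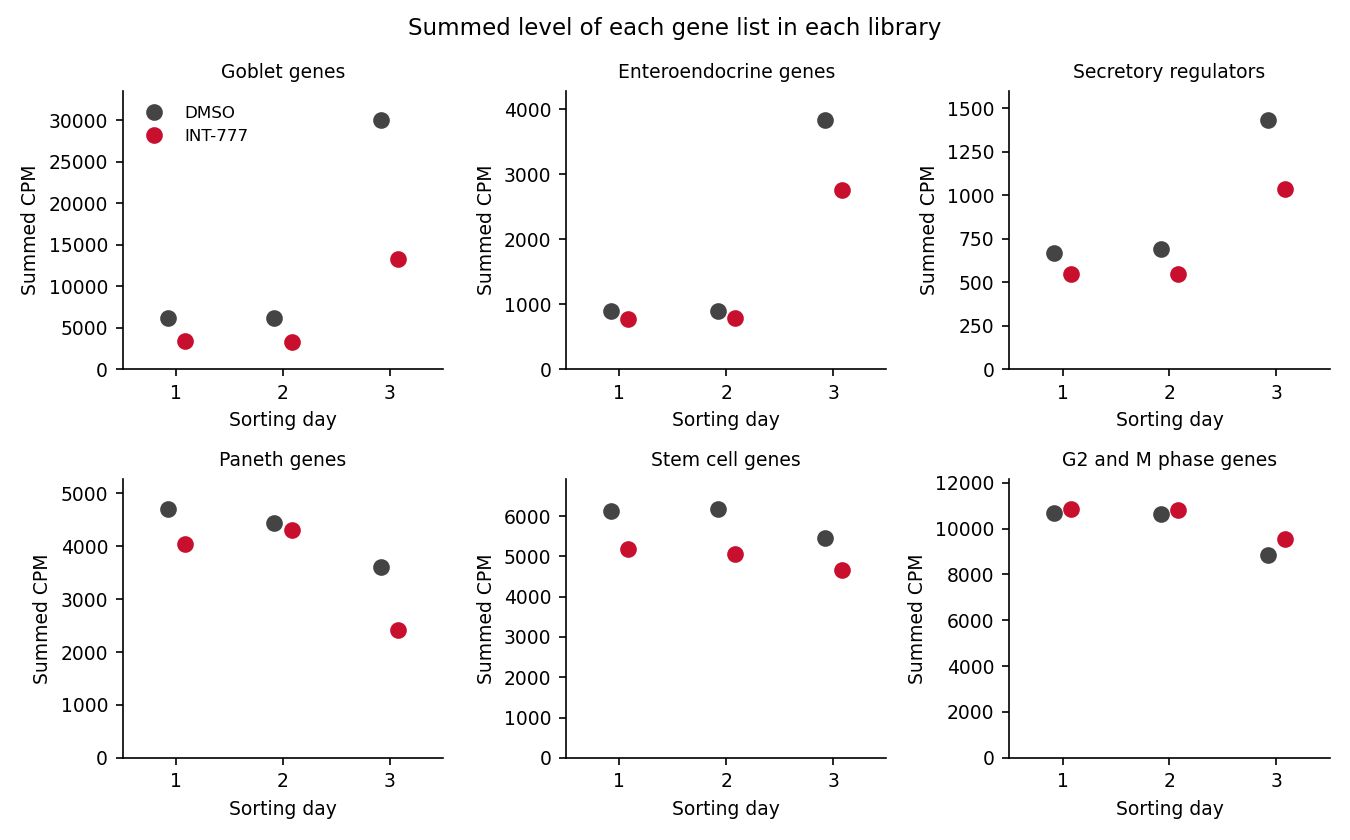
Summed CPM of 6 gene lists in each library, by sorting day and treatment. Goblet, enteroendocrine and secretory regulator sums were higher on day 3 in both treatments, and Paneth, stem cell and G2 and M phase sums were lower on day 3 than on days 1 and 2 of the same treatment.

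Enteroendocrine genes followed the goblet genes. Of 30 members 27 were higher, all 27 at least 2-fold, with a median log2 change of 1.92, and none was lower. The summed level was at 894 CPM on day 1, 893 on day 2 and 3829 on day 3 with DMSO and at 768, 787 and 2753 CPM with INT-777. Chga and Chgb encode granins, the matrix proteins of hormone granules. Chga was at 72.4 CPM on day 1, 72.6 on day 2 and 318 on day 3 with DMSO and at 77.5, 79.8 and 300.1 CPM with INT-777 and changed by 2.03 ± 0.04 (adjusted p = 4.21e-15). Chgb, the most abundant member, changed by 2.05 ± 0.05 (adjusted p = 5.67e-11).

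The rise covered genes of several hormone cell types. Tac1, the precursor of substance P, was at 31.3, 30.5 and 135 CPM with DMSO and 30.7, 34.1 and 144 CPM with INT-777 on days 1, 2 and 3. Cck (cholecystokinin) changed by 1.86 ± 0.04 (adjusted p = 8e-15), Tph1 (serotonin synthesis) by 1.96 ± 0.06 (adjusted p = 5.05e-13), Sst (somatostatin) by 1.92 ± 0.19 (adjusted p = 0.000376) and Gcg (proglucagon) by 1.24 ± 0.12 (adjusted p = 0.00106). The early factors Nkx2-2 (2.20), Rfx6 (2.17), Fev (2.15), Insm1 (1.85) and Neurod1 (2.01) had changes of like size. The 3 members not called were the hormone genes Gip, Pyy and Nts. The day 3 change of Gip was 0.41 with DMSO and 1.665 with INT-777, and that of Nts 1.31 and -0.25.

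Tuft cell genes showed a smaller change. Of 23 in the list 15 passed the filter on low counts, 1 of them only through day 3, and 9 were higher and none lower, with a median log2 change of 0.54. Trpm5, the taste channel of tuft cells, changed by 0.72 ± 0.09 (adjusted p = 1.48e-05) and Avil (advillin) by 0.68 ± 0.08 (adjusted p = 1.26e-05), whereas Pou2f3, the factor that specifies tuft cells, was at 11, 10.4 and 10.1 CPM with DMSO and 11.6, 12.8 and 12 CPM with INT-777 on days 1, 2 and 3 (-0.05 ± 0.08, adjusted p = 0.656). Fyb (0.82), among the 9, is expressed by leukocytes too. With the RNA integrity number as a covariate 2 members were called. The summed level of the list was at 38.1, 34.9 and 48.2 CPM with DMSO and 38.5, 38.5 and 52.1 CPM with INT-777 on days 1, 2 and 3.

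Paneth cell genes differed from the other secretory genes. Of 17 members 11 were lower on day 3, 8 of them at least 2-fold, and 1 was higher, against backgrounds of 16.1% and 17.1%. The median log2 change was -0.84. Their summed level was at 4707 CPM on day 1, 4442 on day 2 and 3616 on day 3 with DMSO and at 4040, 4304 and 2426 CPM with INT-777. Lyz1, which encodes lysozyme and is the most abundant member, was at 1803, 1752 and 1602 CPM with DMSO and 1599, 1678 and 904 CPM with INT-777 on days 1, 2 and 3 and was not called (-0.49 ± 0.20, adjusted p = 0.178). Mmp7, the protease that activates the α-defensins, was the 1 member that rose (0.39 ± 0.07, adjusted p = 0.00137), and with the RNA integrity number as a covariate no member did.

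The α-defensin transcripts, which encode the antimicrobial peptides of Paneth granules, differed in how far they were lower on day 3. Defa21 was at 75.6 CPM on day 1, 71.1 on day 2 and 7.67 on day 3 with DMSO and at 74.4, 78.2 and 11 CPM with INT-777, and Defa22 changed by -2.92 ± 0.08 (adjusted p = 5.32e-12). Defa30 was at 519 CPM on day 1, 466 on day 2 and 104 on day 3 with DMSO and at 433, 484 and 125 CPM with INT-777, a change of -2.06 ± 0.12 (adjusted p = 0.000125). Defa24, the most abundant of them, was at 1056 CPM on day 1, 957 on day 2 and 730.2 on day 3 with DMSO and at 878, 939.8 and 534 CPM with INT-777, a change of -0.61 ± 0.07 (adjusted p = 0.000244). The day 3 values of all 4 lay below those of every other library. Defa17 was not called (-0.53 ± 0.19, adjusted p = 0.136).

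These genes include near-identical copies, so the coding sequences of 5 are shown, from GENCODE M21 (GRCm38, chromosome 8, all on the plus strand), each 282 bases long. Capitals mark the bases of Defa22 that differ from Defa21, and the bases of Defa24 and Defa17 that differ from Defa30.
Defa21: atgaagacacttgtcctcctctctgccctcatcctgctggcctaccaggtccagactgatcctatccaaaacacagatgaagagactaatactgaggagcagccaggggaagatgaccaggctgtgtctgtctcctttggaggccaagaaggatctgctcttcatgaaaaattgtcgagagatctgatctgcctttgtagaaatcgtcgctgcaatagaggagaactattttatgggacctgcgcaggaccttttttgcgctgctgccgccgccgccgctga
Defa22: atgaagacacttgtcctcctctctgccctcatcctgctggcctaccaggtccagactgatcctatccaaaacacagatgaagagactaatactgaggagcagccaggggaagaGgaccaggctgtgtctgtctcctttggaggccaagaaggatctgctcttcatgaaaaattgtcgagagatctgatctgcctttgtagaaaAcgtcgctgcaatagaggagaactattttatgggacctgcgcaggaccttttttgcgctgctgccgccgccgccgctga
Defa30: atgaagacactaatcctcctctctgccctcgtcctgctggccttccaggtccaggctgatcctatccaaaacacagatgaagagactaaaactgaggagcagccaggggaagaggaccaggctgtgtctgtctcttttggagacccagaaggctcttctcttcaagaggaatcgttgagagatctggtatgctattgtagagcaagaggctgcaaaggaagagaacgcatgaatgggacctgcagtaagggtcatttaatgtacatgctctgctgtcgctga
Defa24: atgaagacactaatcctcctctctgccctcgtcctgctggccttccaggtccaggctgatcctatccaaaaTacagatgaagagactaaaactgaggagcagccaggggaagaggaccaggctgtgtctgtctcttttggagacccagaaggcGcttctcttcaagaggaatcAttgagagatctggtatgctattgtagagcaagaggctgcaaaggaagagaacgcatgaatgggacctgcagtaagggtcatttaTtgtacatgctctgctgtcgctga
Defa17: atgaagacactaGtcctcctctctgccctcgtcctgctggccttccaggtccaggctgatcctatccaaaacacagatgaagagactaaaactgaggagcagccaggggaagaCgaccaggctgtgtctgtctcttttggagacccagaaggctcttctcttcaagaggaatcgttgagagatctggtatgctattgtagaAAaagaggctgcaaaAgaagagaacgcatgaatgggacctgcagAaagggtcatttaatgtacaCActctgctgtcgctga
Defa21 and Defa22 share 280 of 282 bases and changed alike, and they match the other 3 at 81.9 to 83.7% of bases. Defa30 and Defa24 share 278 bases and Defa30 and Defa17 share 274, yet the log2 changes of Defa30, Defa24 and Defa17 were -2.06, -0.61 and -0.53. Pairs that map to more than 1 place are counted apart from genes in the deposited files, so the split between copies is uncertain, and a change in which copies are carried or expressed cannot be told apart here.

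Stem cell genes as a list shifted down slightly. Of 29 members 13 were lower and 4 higher, against 16.1% and 17.1% of all genes, none by 2-fold, with a median log2 change of -0.14. Lgr5, the gene whose reporter was used for sorting, was at 72.7 CPM on day 1, 74.8 on day 2 and 62.4 on day 3 with DMSO and at 67, 64.6 and 53.2 CPM with INT-777. Each day 3 value was below both other values of its treatment, and the change was -0.27 ± 0.04 (adjusted p = 0.000109). Olfm4, a secreted protein that marks crypt base cells, changed by -0.57 ± 0.04 (adjusted p = 5.08e-09), Ascl2, a transcription factor of stem cell identity, by -0.42 ± 0.06 (adjusted p = 0.000105), and Scn2b by -0.80 ± 0.06 (adjusted p = 5.18e-08). Prom1 (0.33), Ephb3 (0.46), Rgmb (0.29) and Nrn1 (0.23) were the 4 that rose, and Axin2, a Wnt target, was not called (0.05 ± 0.04, adjusted p = 0.33).

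Notch pathway genes moved in both directions. Receptor genes were lower, Notch1 at -0.58 ± 0.04 (adjusted p = 1.37e-08), Notch2 at -0.45 ± 0.04 (adjusted p = 6.53e-07) and Notch3 at -0.36 ± 0.08 (adjusted p = 0.0029). Among target genes Hes1, the repressor of Atoh1, was lower (-0.20 ± 0.05, adjusted p = 0.00444), whereas Hey1 was at 0.109, 0.0436 and 0.67 CPM with DMSO and 0.127, 0.105 and 0.318 CPM with INT-777 on days 1, 2 and 3 and Dtx1 at 0.109, 0.392 and 1.15 CPM with DMSO and 0.127, 0.105 and 0.573 CPM with INT-777. Both were above all other libraries on day 3, but they passed the filter on low counts only through it, so their calls are given no weight. Ligand genes Dll1 and Dll4 rose as given above, and the glycosyltransferase gene Lfng rose (0.70 ± 0.05, adjusted p = 4.95e-08). The ligand gene Jag2 was lower (-0.24 ± 0.05, adjusted p = 0.00267) and Jag1 was not called (-0.15 ± 0.06, adjusted p = 0.0664). Of the 15 members tested 7 were lower, against 16.1% of all genes. Of 18 Wnt targets tested, 3 were higher and 7 lower, against 17.1% and 16.1% of all genes. Wif1 (1.46) and Apcdd1 (1.00), both inhibitors of Wnt, rose, and Ccnd1, which encodes cyclin D1, was at -0.40 and Myc at -0.34. With the RNA integrity number as a covariate 4 members of each list were lower.

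Enterocyte genes moved in both directions. Of 34 tested 5 were higher and 16 lower, with a median log2 change of -0.20, and 9 were lower with the RNA integrity number as a covariate. Anpep, an aminopeptidase of the brush border, was at 808 CPM on day 1, 834 on day 2 and 550.1 on day 3 with DMSO and at 265, 259.6 and 163 CPM with INT-777 (-0.63 ± 0.04, adjusted p = 2.01e-09). Sis, which encodes sucrase-isomaltase, went the other way, at 22, 21.6 and 51.3 CPM with DMSO and 15.3, 15 and 43.3 CPM with INT-777 on days 1, 2 and 3 (1.37 ± 0.06, adjusted p = 4.22e-11), as did the fructose transporter gene Slc2a5 (1.11) and the apolipoprotein gene Apoa1 (1.14).

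Markers of position along the gut gave no uniform shift. Among 10 genes of the proximal small intestine 2 were higher and 3 lower, among them the factors Gata4 (-0.35 ± 0.04, adjusted p = 1.17e-06) and Onecut2 (-0.34 ± 0.04, adjusted p = 3.05e-06). Among 8 genes of the distal small intestine none was called other than Fabp6, whose call is given no weight. The ileal hormone gene Fgf15 was at 18.8, 17.6 and 16.9 CPM with DMSO and 15, 15.7 and 13.4 CPM with INT-777 on days 1, 2 and 3 and was not called (-0.15 ± 0.07, adjusted p = 0.1). Of the 13 colon genes in the files 3 were tested and Mptx1 was the 1 called.

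Genes of the G2 and M phases were lower on day 3 as a group. Of 53 members 44 were lower and none higher, against 16.1% and 17.1% of all genes, and the median log2 change was -0.22. Mki67, which marks cycling cells, was at 1004 CPM on day 1, 1001 on day 2 and 822 on day 3 with DMSO and at 968, 936 and 756 CPM with INT-777 (-0.31 ± 0.04, adjusted p = 4.92e-06). The largest falls were those of Cenpf, a kinetochore protein (-0.42 ± 0.04, adjusted p = 1.64e-07), Gas2l3 (-0.41 ± 0.04, adjusted p = 2.37e-06) and Cdc20, an activator of the anaphase-promoting complex (-0.38 ± 0.04, adjusted p = 3.65e-06). The changes over the list were small, from -0.42 to -0.02 on the log2 scale. With the RNA integrity number as a covariate 21 of the 53 were lower and the median was -0.16.

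S phase genes moved less. Of 42, 14 were lower, against 16.1% of all genes, such as Hells (-0.33), Usp1 (-0.32) and Nasp (-0.29). Only 1 was higher, Pcna (0.20), against 17.1% of all genes. The median was -0.08, and 6 were lower with the RNA integrity number as a covariate. Genes of cell cycle exit went the other way, with 9 of 12 tested higher and none lower and a median of 0.41. Btg2, an antiproliferative gene, was at 37.5 CPM on day 1, 35.9 on day 2 and 77.4 on day 3 with DMSO and at 22.3, 22.3 and 45.8 CPM with INT-777 (1.06 ± 0.05, adjusted p = 3.22e-11). Cdkn1a, which encodes the cyclin-dependent kinase inhibitor p21, was at 116 CPM on day 1, 117 on day 2 and 167 on day 3 with DMSO and at 108, 108 and 181 CPM with INT-777 (0.63 ± 0.04, adjusted p = 1.34e-08). Of 16 p53 targets 5 were higher and 2 lower, against 17.1% and 16.1% of all genes, with a median of 0.08.

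Stress responses did not move as 1 block. Of 16 heat shock genes 6 were lower, against 16.1% of all genes, and none higher, among them Hspd1 (-0.30) and Hspa1b (-0.37). Of 21 genes of the integrated stress response 4 were higher and 8 lower, against 17.1% and 16.1% of all genes. Vldlr, a lipoprotein receptor gene, was higher (0.94 ± 0.09, adjusted p = 1.38e-06), and the stress regulator Nupr1 (-0.93 ± 0.07, adjusted p = 4.08e-08) and the serine synthesis gene Psat1 (-0.32 ± 0.03, adjusted p = 1.65e-06) were lower. Immediate-early genes, which respond to cell handling, had 4 of 21 higher and 3 lower, near the 17.1% and 16.1% of all genes. Those called included Egr1 (-0.35 ± 0.06, adjusted p = 0.000123) and Nr4a3 (1.39 ± 0.16, adjusted p = 7.33e-06). Hypoxia and glycolysis genes had 4 of 19 higher, such as Ndrg1 (0.83 ± 0.04, adjusted p = 6.49e-11), and 5 lower, near the 17.1% and 16.1% of all genes. With the RNA integrity number as a covariate 3 heat shock genes, no immediate-early gene and 1 hypoxia gene were lower. Without the INT-777 library of day 3, 11 heat shock and 8 immediate-early genes were lower, and without the DMSO one 4 heat shock genes were lower and 1 higher.

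Genes of protein folding and secretion in the endoplasmic reticulum rose by small amounts. Of 29, 20 were higher and 1 lower, with a median log2 change of 0.21, and with the RNA integrity number as a covariate 11 were higher. Ern2, the stress sensor of mucus-making cells, was the 1 member above 2-fold, at 31.9 CPM on day 1, 32.3 on day 2 and 109 on day 3 with DMSO and at 21.6, 22.4 and 63.7 CPM with INT-777 (1.66 ± 0.05, adjusted p = 4.62e-13). The chaperone gene Calr, the most abundant, was not called (0.08 ± 0.03, adjusted p = 0.0752). Antioxidant genes under NRF2 showed a like shift, with 9 of 14 higher, none lower and a median of 0.23, such as Gclc (0.37) and Srxn1 (0.33).

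Genes of contact with microbes and of immune signalling gave mixed results. Of 17 antimicrobial and microbe-responsive genes 10 were tested, of which 6 were higher and 1 lower. Reg3b and Reg3g encode secreted lectins that act on bacteria. Reg3b was at 3.71 CPM on day 1, 3.14 on day 2 and 10.5 on day 3 with DMSO and at 1.9, 2.29 and 8.06 CPM with INT-777 (1.76 ± 0.11, adjusted p = 5.82e-09), and Reg3g rose by 0.68 ± 0.08 (adjusted p = 9.03e-06). The fucosyltransferase gene Fut2 rose by 1.24 ± 0.12 (adjusted p = 6.42e-07). Interferon-responsive genes had 5 of 20 tested higher, against 17.1% of all genes, and none lower, led by Irf7 (0.82 ± 0.12, adjusted p = 4.84e-05). The count was 2 without the DMSO library of day 3 and 1 with the RNA integrity number as a covariate. Of 9 MHC class I genes 4 were higher, among them B2m (0.24 ± 0.03, adjusted p = 3.69e-05), and 2 lower, Psmb9 (-0.29) and the regulator Nlrc5 (-1.09). Of 7 MHC class II genes 3 were lower, among them Cd74, which was at 17.8, 17.2 and 4.86 CPM with DMSO and 13.6, 12.2 and 3.95 CPM with INT-777 on days 1, 2 and 3.

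Housekeeping groups changed little in size. Of 80 cytosolic ribosomal protein genes tested 16 were higher and 2 lower, with a median log2 change of 0.07, and of 76 nuclear genes of oxidative phosphorylation 15 were higher and 5 lower, with the same median. Both counts of higher genes lie near the 17.1% of all genes. None of 13 mitochondrially encoded genes was higher and 3 were lower, among them mt-Nd5 (-0.23 ± 0.04, adjusted p = 0.00067). With the RNA integrity number as a covariate 2 ribosomal protein genes, 6 of oxidative phosphorylation and 2 mitochondrially encoded genes were higher. Without the DMSO library of day 3 these counts were 32, 23 and 5. Without the INT-777 library of day 3, 10 genes of oxidative phosphorylation were higher and 11 lower, and 8 mitochondrially encoded genes were lower. The share of genes called moved with gene length and GC content. The percentage of protein-coding genes called lower was 8.52% in the shortest of 5 bins of exon length and 29.0% in the longest. The percentage called higher was 22.4% and 16.7%, and the median log2 changes were 0.07 and -0.05. From the lowest to the highest of 5 bins of GC content, the percentage higher went from 14% to 24%. The percentage lower went from 21% to 15%, and the medians there were -0.03 and 0.04. Neither property was in the model, and their part in the small changes above was not tested.

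Most listed markers of cells outside the epithelium were rare in all libraries, with exceptions such as Fbln1 and Mrc1. The summed levels of the pan-leukocyte and lymphocyte lists were higher on day 3. Of 10 pan-leukocyte genes 9 were higher in both day 3 libraries than in all 4 others, a pattern found for 18.5% of all genes tested. Their summed level was at 1.35 CPM on day 1, 1.35 on day 2 and 6.27 on day 3 with DMSO and at 1.19, 1.32 and 6.6 CPM with INT-777. Ptprc, which encodes CD45 and defines leukocytes, was at 0 CPM on day 1, 0 on day 2 and 1.51 on day 3 with DMSO and at 0.0635, 0.0839 and 1.29 CPM with INT-777. Since 4 of the 6 tested members passed the filter only through day 3, their test calls are given no weight.

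T cell and intraepithelial lymphocyte genes showed the same pattern in 13 of 16 members. Gzma, the granzyme of cytotoxic lymphocytes, had no count in any library of days 1 and 2 and was at 1.71 CPM (79 counts) with DMSO and 1.59 CPM (75 counts) with INT-777 on day 3, at least 103-fold higher than a floor of 3 counts over the 4 libraries. Gzmb had 27 and 28 counts against 0, at least 36.6-fold higher by the same floor. Cd8a was at 0.0436 CPM on day 1, 0 on day 2 and 0.713 on day 3 with DMSO and at 0, 0 and 0.806 CPM with INT-777, and Ccl5 at 0.0218 CPM on day 1, 0.0436 on day 2 and 0.756 on day 3 with DMSO and at 0, 0 and 0.636 CPM with INT-777. Lck, at 5.01 to 6.06 CPM in every library, made up most of the list's summed level and was not called (0.01 ± 0.11, adjusted p = 0.953).

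B and plasma cell genes were above all other libraries on day 3 in 7 of 10 members. Igha, the heavy chain of immunoglobulin A, was at 0 CPM on day 1, 0 on day 2 and 2.51 on day 3 with DMSO and at 0, 0.0629 and 0.488 CPM with INT-777. Of the macrophage genes Adgre1 had 1 count in each day 3 library and none elsewhere, whereas Mrc1 was at 16.5, 17.2 and 12.4 CPM with DMSO and 18.1, 18.8 and 19.2 CPM with INT-777 on days 1, 2 and 3. Of the list, 10 of 13 myeloid genes were higher in both day 3 libraries than in all others, while its summed level, mostly that of Mrc1, was at 20.1, 21.3 and 17.8 CPM with DMSO and 21.8, 23.1 and 25.1 CPM with INT-777 on days 1, 2 and 3. The complement gene C1qb had 4 and 10 counts and C1qc 8 and 8 counts on day 3 and none elsewhere. Among fibroblast genes Postn had 17 and 7 counts on day 3 and none on the other days, while Fbln1, which held 98.4% of the list's sum, was at 91.7, 92.5 and 107 CPM with DMSO and 79.8, 77.2 and 80.6 CPM with INT-777 on days 1, 2 and 3. Pecam1, shared by endothelium and leukocytes, was higher (1.96 ± 0.18, adjusted p = 4.87e-07), while the endothelial genes Egfl7 and Lyve1 were not called. Among pancreatic acinar genes Ctrb1 was at 0, 0.0436 and 0.454 CPM with DMSO and 0.0212, 0.0419 and 0.276 CPM with INT-777 on days 1, 2 and 3 and passed the filter only through day 3. Ly6g, a neutrophil gene, was lower (-1.38 ± 0.28, adjusted p = 0.00106), while S100a8 and S100a9 were not tested. Of 9 genes of enteric neurons and glia 3 were called higher, Ret (1.65), Tubb3 (2.22) and Uchl1 (0.86), which enteroendocrine cells also express.

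**Figure D3:**
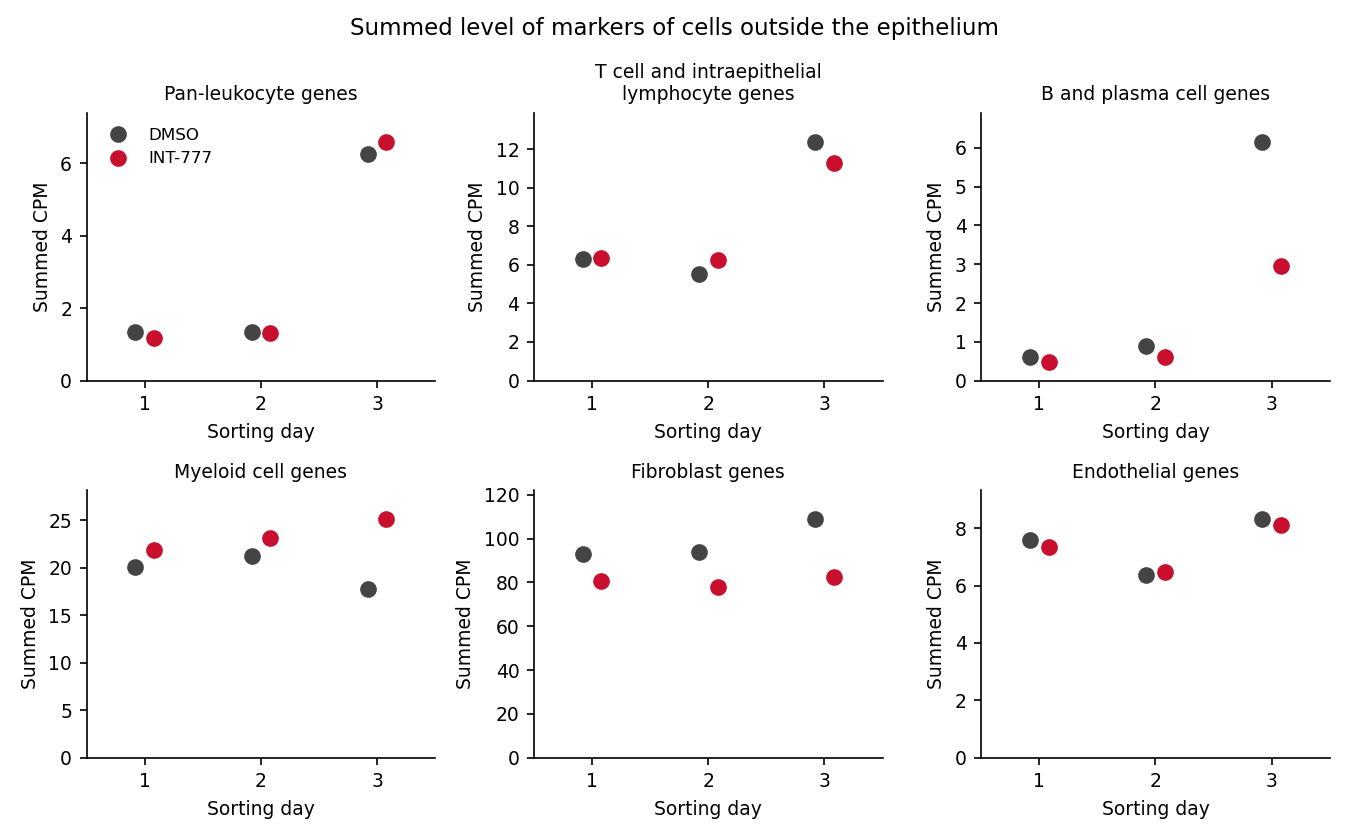
Summed CPM of markers of 6 cell types outside the epithelium in each library, by sorting day and treatment. Pan-leukocyte, lymphocyte and B cell sums were higher on day 3 in both treatments and stayed at 12.4 CPM or less. Myeloid and fibroblast sums overlapped between day 3 and the other days, and endothelial sums on day 3 (8.32 and 8.13 CPM) lay just above the others.

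Lymphocyte transcripts moved with the goblet and enteroendocrine genes in the same libraries. Their part in the other day 3 differences was not tested. Of the 732 genes at least 2-fold higher 54 were in the goblet, enteroendocrine or secretory regulator lists, 17 in the 5 leukocyte lists and 640 in none of the 48 lists. The 17 are given no weight as calls. Among tested members, 4 of 6 pan-leukocyte, 8 of 9 T cell, 3 of 4 B cell and 1 of 5 myeloid genes passed the filter only through day 3.

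Over all 16570 genes the day 3 difference had the same direction in both treatments for 70.2%, and it was the larger one with DMSO for 56.4%. Fitted within each treatment, 3111 genes were higher and 3048 lower on day 3 with DMSO (18.8% and 18.4%), and 2571 and 2557 with INT-777 (15.5% and 15.4%). Of the genes higher with DMSO 56.0% were also higher with INT-777, which is 67.8% of the INT-777 calls, and 1656 genes were lower in both, 54.3% and 64.8% of each list. The 2 contrasts rest on different libraries but on the same 3 pools of mice. Of the 732 genes at least 2-fold higher 731 had the same sign in both treatments, a count the choice of these genes largely fixes. Of them 483 changed more with DMSO, and the median log2 change was 1.70 with DMSO and 1.52 with INT-777.

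A test of the difference itself, the interaction of day 3 with treatment, called 568 genes (3.43%) with a more positive and 560 (3.38%) with a more negative day 3 change under INT-777, together 6.81%. Of these, 309 were also called higher on day 3 over both treatments, and 247 of the 309 rose more with DMSO. Another 189 were called lower over both, of which 154 fell more with DMSO. These calls rest on 2 residual degrees of freedom and on the near-identity of days 1 and 2: DESeq2 called 177 and 73, and without the DMSO library of day 1 or of day 2 the counts were 25 and 8 or 20 and 10.

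**Figure D4:**
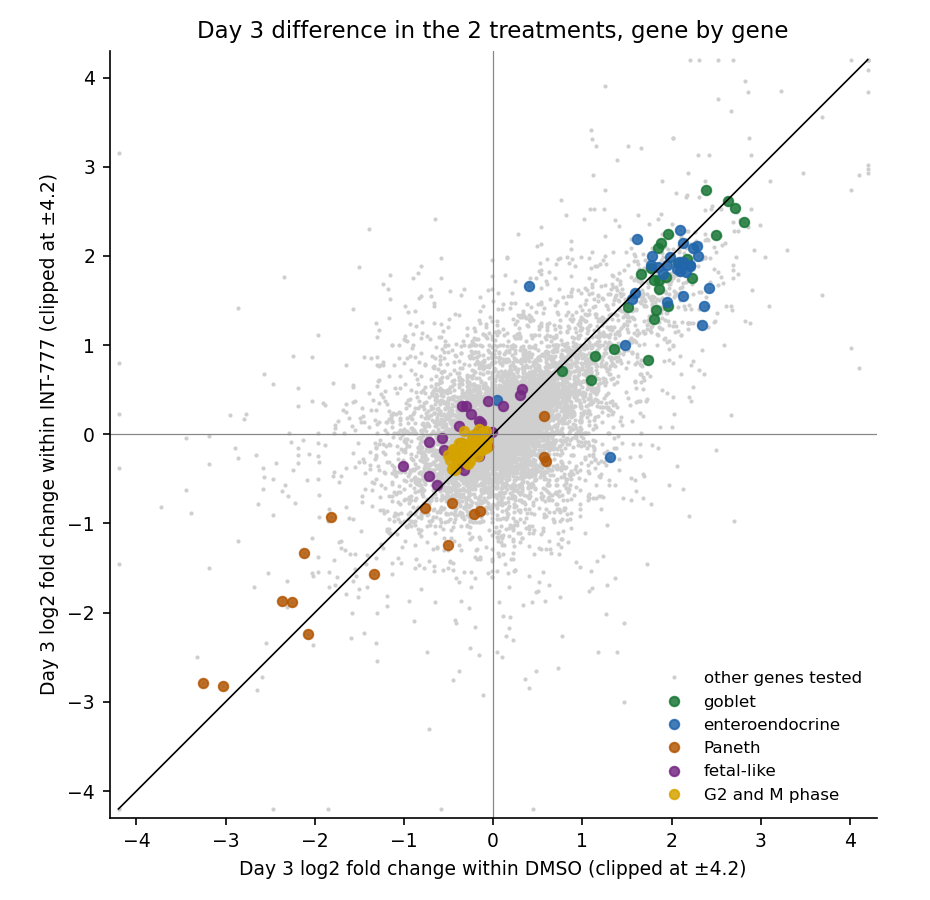
Log2 fold change on day 3 within DMSO (x axis) against that within INT-777 (y axis) for 16570 genes, with 5 gene lists in colour and the line of equality in black. Goblet and enteroendocrine genes sit mostly at the upper right close to the line, Paneth genes mostly at the lower left, and fetal-like genes mostly above the line.

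Goblet and enteroendocrine genes changed by nearly as much with INT-777. The goblet median was 1.86 with DMSO and 1.76 with INT-777, and that of the enteroendocrine genes 2.07 and 1.87. The goblet list shares 6 genes with the secretory regulators. Of 26 goblet genes 10 had a smaller rise with INT-777 by the interaction test and 3 a larger one, against 3.38% and 3.43% of all genes. Muc2 differed most, by -0.90 ± 0.05 (adjusted p = 4.13e-20). Spdef (0.28 ± 0.08, adjusted p = 0.0186) and Agr2 (0.26 ± 0.06, adjusted p = 0.00613) rose more with INT-777. Atoh1 did not pass (0.09 ± 0.08, adjusted p = 0.555). Of 30 enteroendocrine genes 8 had a less positive change with INT-777, such as Sst (-0.92 ± 0.13, adjusted p = 1.68e-06) and Gcg (-0.48 ± 0.07, adjusted p = 1.31e-06), and 1, Gip, had a more positive change.

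Paneth genes fell further with INT-777 in part. Of 17 members 7 had a more negative change and 2 a more positive one, against 3.38% and 3.43% of all genes. Lyz1 changed by -0.86 on the log2 scale within INT-777 and by -0.15 within DMSO, a difference of -0.71 ± 0.05 (adjusted p = 1.42e-15). The ribonuclease gene Ang4 changed by 0.57 with DMSO and -0.26 with INT-777 (-0.82 ± 0.06, adjusted p = 3.09e-13). Defa21 went the other way, with a smaller fall under INT-777 (0.46 ± 0.12, adjusted p = 0.00718). With DESeq2 the interaction calls were 4 negative and 0 positive among the goblet genes, 2 and 0 among the enteroendocrine genes and 4 and 1 among the Paneth genes. Without the DMSO library of day 1 or of day 2 the negative calls were 1 or 2 goblet, 0 enteroendocrine and 2 Paneth genes.

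Fetal-like genes, which mark the regenerating epithelium, differed between the treatments. Of 23 tested 14 had a more positive day 3 change with INT-777 and none a more negative one, against 3.43% and 3.38%. Ly6a, which encodes Sca-1, was at 299 CPM on day 1, 291 on day 2 and 146 on day 3 with DMSO and at 261, 268 and 207 CPM with INT-777. The log2 change was -1.01 with DMSO and -0.35 with INT-777, a difference of 0.66 ± 0.06 (adjusted p = 1.03e-13). Msln was at 16.3 CPM on day 1, 17 on day 2 and 13.1 on day 3 with DMSO and at 85.4, 81.9 and 104 CPM with INT-777 (0.66 ± 0.09, adjusted p = 4.6e-07), and Anxa1 and Anxa3 differed by 0.62 ± 0.09 (adjusted p = 2.04e-06) and 0.48 ± 0.06 (adjusted p = 7.23e-08). The median of the list was -0.32 with DMSO and 0.01 with INT-777, and 8 of the 23 were called lower and 3 higher on day 3 over both treatments. Without the INT-777 library of day 3, 16 were lower, and without the DMSO library of day 3, 5. With DESeq2 9 of the 23 were called, and without the DMSO library of day 1 or day 2 the count was 3 or 2.

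Cycle genes differed in the same direction. Of 53 G2 and M phase genes 13 had a more positive change with INT-777 and none a more negative one, against 3.43% and 3.38% of all genes. The medians were -0.29 with DMSO and -0.16 with INT-777. Nusap1 (0.37 ± 0.06, adjusted p = 2.37e-05) and Aurka (0.29 ± 0.06, adjusted p = 0.000742) were among them. None of the 13 was called without the DMSO library of day 1 or of day 2, and DESeq2 called 7 of the 53.

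**Figure D5:**
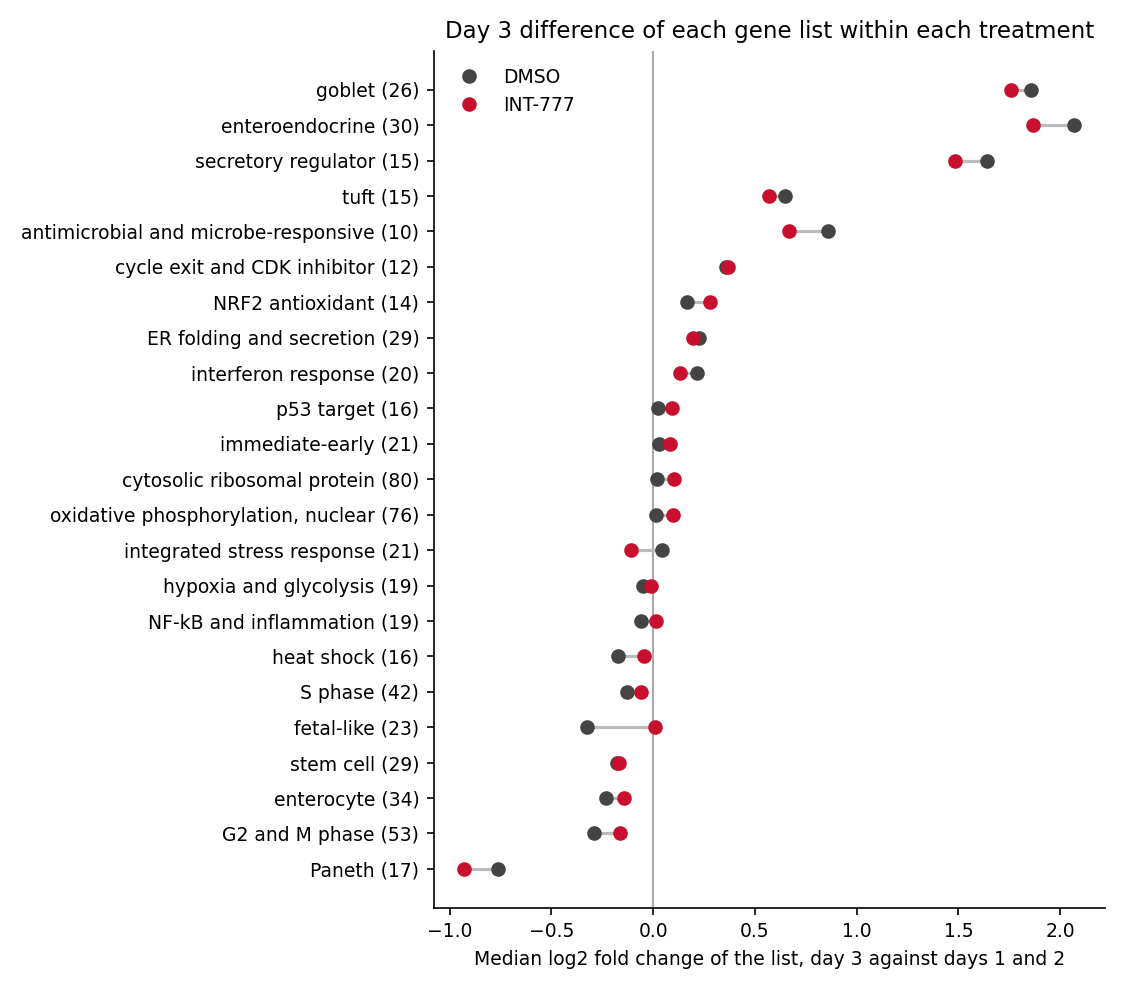
Median log2 fold change on day 3 against days 1 and 2 of 23 gene lists, within DMSO (grey) and within INT-777 (red), with the number of genes tested in brackets. The 3 secretory lists stand at 1.48 or above in both treatments, Paneth genes at -0.76 and -0.93, and the fetal-like list shows a wide gap between the treatments.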

How the data were processed

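Bulk RNA was sequenced as paired 100-base reads on a BGISEQ-500, per the labels. The authors aligned reads with STAR 2.73a to GRCm38 (mm10) and used FastQC and edgeR 3.24.3, per the submitters' processing notes; the sources used here give no annotation release. The deposited counts are read pairs per gene for each library, unnormalized, with no-feature, ambiguous, multimapping and unmapped pairs in separate lines that stayed out of library sizes and tests (3.32 to 3.83%, 4.35 to 4.54%, 5.96 to 6.31% and 10.3 to 11.3% of pairs). Unstranded counts were used. First-strand counts held 50.1 to 50.6% of them, so reads of overlapping or antisense genes cannot be separated; Zg16, Afp, Kcnb2, Cdk5r2, Hoxb6, Cd74, Lgr5, Olfm4, Dll1 and Dll4 overlap other genes. Of 54838 gene identifiers 54809 matched GENCODE M21, which gave symbols and coordinates.

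Genes were filtered with filterByExpr (minimum count 10) and fitted with edgeR 4.0.16 (robust quasi-likelihood, TMM scaling, 16570 genes) on treatment and day 3, with 3 residual degrees of freedom, and on their interaction, with 2. Depth of 45682340 to 47905087 pairs gives a small counting error except below about 1 CPM. In data simulated from these libraries, 71% of 1.5-fold and 81% of 2-fold day 3 changes were recovered, with 12 false calls among 16153 genes. For interactions 47% and 71% were recovered, with 8 false calls among 16338. The simulated libraries were independent, with no shared pool, so the false calls do not cover differences between pools. Both simulations used the spread of the model without the interaction.

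Day 3 and the 48 gene lists were chosen with earlier results of these data known. Genes were named by a rule: Lgr5, the 12 largest rises and falls, the 6 strongest interactions each way, and in every list the 3 of smallest p and the most abundant; other members named were picked after their values were seen, and a few genes the rule names are not reported here. Same-day libraries share a mouse pool, per the labels, and their deviations correlated across genes (r of 0.326, 0.365 and 0.638 for days 1, 2 and 3). Across days, r was 0.366 for DMSO day 1 with INT-777 day 2 and 0.341 for DMSO day 2 with INT-777 day 1. Each deviation was taken from a treatment mean that includes day 3, so the day 3 shift enters every r. These values therefore cannot decide whether same-day libraries are paired within days 1 and 2. Alternatives were other scaling, filters, DESeq2 1.42.0, limma-voom (limma 3.58.1), first-strand counts, the day as a block, RNA integrity as a covariate, a stricter threshold and leaving out each library or day. Promoters came from RefSeq tables. Figures used matplotlib 3.10.9.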

Additional observations from a re-analysis of the deposited data

Results flagged for a closer look

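The change on day 3 differed between DMSO and INT-777 by the interaction test of edgeR for 568 genes in the positive and 560 in the negative direction, and the 6 strongest each way among genes whose mean log2 CPM was not under 1 are given here. Psca, a surface protein of epithelial progenitors, was at 2.29 CPM on day 1, 1.94 on day 2 and 0.865 on day 3 with DMSO and at 2.03, 2.06 and 3.1 CPM with INT-777; it was lower on day 3 with DMSO and higher with INT-777, a difference of 1.89 on the log2 scale (adjusted p = 9.01e-05). Sprr1a, a cornified envelope gene seen in regenerating gut, differed by 1.53 (adjusted p = 4.13e-20), from -0.57 with DMSO to 0.95 with INT-777. The others with a more positive change were Arhgap40 (1.41), the hormone gene Gip (1.26), Slc43a3 (1.13) and Tm4sf1 (1.09). Gip was at 9.03, 9.06 and 12 CPM with DMSO and 6.33, 7.02 and 21.2 CPM with INT-777 on days 1, 2 and 3, so that the INT-777 library of day 3 held the highest value.

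In the negative direction the hormone gene Nts differed by -1.56 (adjusted p = 0.000382), the protease gene Capn8 by -1.34, Hdc, which encodes the enzyme of histamine synthesis, by -1.31, Apol7a by -1.24, Clec2d by -1.17 and the ribonuclease gene Rnase1 by -1.08. Capn8 was at 1.83 CPM on day 1, 1.85 on day 2 and 6.12 on day 3 with DMSO and at 1.14, 2.06 and 2.1 CPM with INT-777, and its log2 change was 1.73 with DMSO and 0.39 with INT-777. Each of these values rests on 1 library of day 3 per treatment.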

How the results depend on the processing

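Of the alternatives run, other scaling, limma-voom and no low-count filter kept every count of genes within 1.5 times. With a CPM of at least 1 required in 2 libraries, 446 genes were at least 2-fold higher and 37 lower. DESeq2 gave 51 genes 2-fold lower, interactions of 177 and 73, and within-treatment counts of 1597 and 1983 with DMSO and 1312 and 1313 with INT-777. First-strand counts gave 53 genes 2-fold lower. RNA integrity as a covariate gave 1354 higher, 1043 lower and 481 at least 2-fold higher. Without both libraries of day 1, 1764 genes were lower, without both of day 2, 1852 were higher and 1225 lower, and at an adjusted p under 0.01, 1733 were lower. With the replicate block (the sorting day in 3 levels) 2490 genes were higher and 2178 lower, 718 and 69 of them by 2-fold, with 453 and 446 interactions, and no count moved by over 1.5 times.

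Leaving out each library in turn gave 2266 to 3140 genes higher, 1873 to 3131 lower, 660 to 854 at least 2-fold higher and 62 to 135 lower. Within DMSO the ranges were 1883 to 3178 higher and 1914 to 3483 lower, and within INT-777 1981 to 2503 and 1517 to 2454. Interactions ranged from 20 to 934 and from 8 to 555, lowest without a DMSO library of day 1 or 2, and could not be fitted without a day 3 library.

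Signs turned for 4 genes that day 3 moved in opposite directions in the 2 treatments: without the DMSO or the INT-777 library of day 3, Psca was at 0.60 or -1.29, Slc43a3 at 0.50 or -0.64, Sprr1a at 0.95 or -0.58 and Klf6 at 0.23 or -0.23. List medians near 0 or of few genes turned too: distal small intestine (-0.00267) and nuclear-retained RNA (-0.0087) with first-strand counts, colon without a filter (-0.75), endothelial (-0.29) and histone (0.037) genes at a CPM of 1, endothelial genes (-0.28, or 0.48) and fetal-like genes (0.014, or -0.33) without the DMSO, or the INT-777, library of day 3, and fetal-like genes (0.043) with the covariate. The cause of these shifts was not tested. Over all alternatives the lead lists kept 25 to 26 goblet, 26 to 29 enteroendocrine and 15 regulator genes higher and 11 to 15 Paneth genes lower.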

Other observations

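Along chromosome 8 the 3 tested α-defensin genes at 1 end had smaller falls over both treatments than the other 11. Of the 22 Defa genes in the files 14 were tested and 13 were lower. The 11 tested genes between Defa21 (chr8:21025545-21026516, GRCm38) and Defa26 (chr8:21618183-21618972) had log2 changes from -3.01 to -1.31. The 3 that lie beyond them, Defa17, Defa34 and Defa24 (chr8:21734494-21735471), had -0.53, -1.01 and -0.61. Their changes differed by treatment, at -0.22, -0.66 and -0.46 with DMSO and -0.89, -1.48 and -0.77 with INT-777. The smallest fall among the 11 was -1.33 (Defa26) with DMSO and -0.93 (Defa3) with INT-777. With INT-777 Defa34 thus lay inside their range. The pattern by position was noticed after the values were seen, no test was made, and near-identical copies share reads.

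The Hoxb cluster showed a break of the same kind. Hoxb9, Hoxb8, Hoxb7, Hoxb6 and Hoxb5, neighbours from chr11:96271457-96276595 (Hoxb9) to chr11:96303336-96306121 (Hoxb5), had log2 changes of -2.17, -1.68, -1.47, -1.72 and -1.77, all called. Their neighbours Hoxb4 (0.15), Hoxb3 (-0.57) and Hoxb2 (-0.31) were not. The summed level of the cluster was 25.8, 26.6 and 9.32 CPM with DMSO and 23.7, 23.3 and 9.19 CPM with INT-777 on days 1, 2 and 3. Of 7 tested Hoxa genes 1 was lower.

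Genes of the body clock gave 5 of 17 tested lower and 2 higher on day 3, against 16.1% and 17.1% of all genes. With the RNA integrity number as a covariate the counts were 2 and 2. Hlf was at -1.33 ± 0.16 (adjusted p = 6.66e-06) and Npas2 at 0.53 ± 0.06 (adjusted p = 5.64e-06). Of 20 genes of cholesterol synthesis 5 were lower and 3 higher, near the 16.1% and 17.1% of all genes, with log2 changes from -0.24 to 0.31; with the RNA integrity number as a covariate 2 were lower and 1 higher, and without the INT-777 library of day 3 1 was higher. The hour of each sort is not among the labels used here.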
